A study of Mus musculus with 3 samples.

Results

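The semaphorins, plexins and neuropilins are a ligand and receptor system, here taken as every protein-coding gene of chromosomes 1 to 19 in the RefSeq annotation of mm10 whose symbol starts with Sema and a number or with Plxna, Plxnb, Plxnc or Plxnd, plus Nrp1 and Nrp2. The rule found 29 of 20661 protein-coding genes, namely 20 semaphorins, 7 plexins and 2 neuropilins. The readout was histone H3 monomethylated at lysine 4 (H3K4me1), a chromatin mark of enhancers, mapped by chromatin immunoprecipitation and sequencing (ChIP-seq) with the antibody ab8895. The DNA came from adipocytes of male C57BL/6J mice. There was 1 library from wild-type control mice (WT) and 1 from mice without the mitochondrial protease LONP1 in adipocytes (AKO), and an input library without antibody was the background of both. That input is labelled wild-type, while its title ties it to the AKO library. The promoter that drives the adipocyte-specific deletion, the fat depot, the age and the number of mice per library are not given in the sources used here. With 1 library per genotype there is no spread between replicates and no test, so every difference is between these libraries and may be technical.

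Semaphorins are guidance signals that steer growing axons, blood vessels and migrating cells, mostly by repelling them. Class 3 semaphorins are secreted and bind neuropilins, which lack a signalling domain of their own and pass the signal to plexins. Classes 4, 5 and 6 span the membrane, Sema7a is held there by a lipid anchor, and these bind plexins directly. Plexins carry an intracellular domain that switches off small GTPases of the Ras and Rap families, and B plexins also bind exchange factors for RhoA. Fat is crossed by sympathetic nerves and capillaries, and both express receptors of this system.

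After removal of duplicates the libraries held 15015805 (WT) and 14733950 (AKO) tags, and the deposited lists 72040 and 62361 peaks covering 60.2 and 44.3 Mb. The weakest called summit in either list had 10 overlapping fragments, so weaker sites were not detectable at this depth. All 8 adipocyte markers examined had a peak in at least one library, and together they covered 29.3 kb in WT against 18.4 kb in AKO. Coverage was less in AKO at 7 of them, Plin1 included, and more at 1, Adipoq (0.995 and 1.31 kb). Markers of other cells were marked as well, in 6 of 6 endothelial, 6 of 6 progenitor, 3 of 6 macrophage, 3 of 4 muscle and 4 of 5 nerve genes. Of all protein-coding genes 71.1% had a peak, so such counts alone do not show which cells were present. Of the macrophage markers, Ptprc, Adgre1 and Lyz2 had no peak in either library. The summed AKO to WT ratios of these lists were 0.493 for endothelium, 0.594 for progenitors, 0.614 for macrophages, 0.415 for muscle and 0.422 for nerve. For adipocytes the ratio was 0.628 and over all genes 0.725, so every marker list was below that of all genes. The part of these cells in the results below was not tested. No cell composition was measured, and if other cells were present, fewer cells of a type and less mark per cell cannot be told apart.

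Most members carried the mark, and most carried less of it in AKO. Coverage here means the peak-covered length of a window that runs from 10 kb before a gene to 10 kb after it. Of the 29 members, 28 had a peak in either library, compared with 71.1% of all protein-coding genes. Coverage was less in AKO at 23 of these 28 and more at 5, while over all genes with a peak 78.3% had less and 21.7% more. The members covered 272 kb in WT against 189 kb in AKO, a ratio of 0.694, and the ratio over all genes was 0.725. The median difference was −3.27 kb for the members and −0.248 kb for all genes. Median WT coverage was 8.89 kb at members and 1.13 kb over all genes, so these medians are not on an equal footing. Members were also long, with a median gene body of 46.3 kb against 17.5 kb. Among gene bodies under 100 kb the median difference was −4.425 kb for members and −0.195 kb for all genes. From 100 kb up it was −0.626 and −0.5025 kb. The part of gene length was not tested.

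A rule of size called genes lower in AKO when WT coverage exceeded AKO coverage more than 2-fold with at least 2 kb between them, and called genes higher when the excess was in AKO. It called 4 members lower, Sema3g, Sema4a, Sema7a and Plxnb1, and 0 higher. Over all genes 5.56% were lower and 0.237% higher. Only genes with at least 2 kb in WT can be called lower, and 4 of the 23 such members (17.4%) stood against 14.0% of all such genes, a share near the background. Of the 21 members with at least 2 kb in AKO 0 were higher, against 0.759% of all such genes. Sema5b (ratio 1.95) and Sema6b (1.95) fell just short of the ratio, and Sema7a (2.30) was the closest member inside it.

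**Figure D1:**
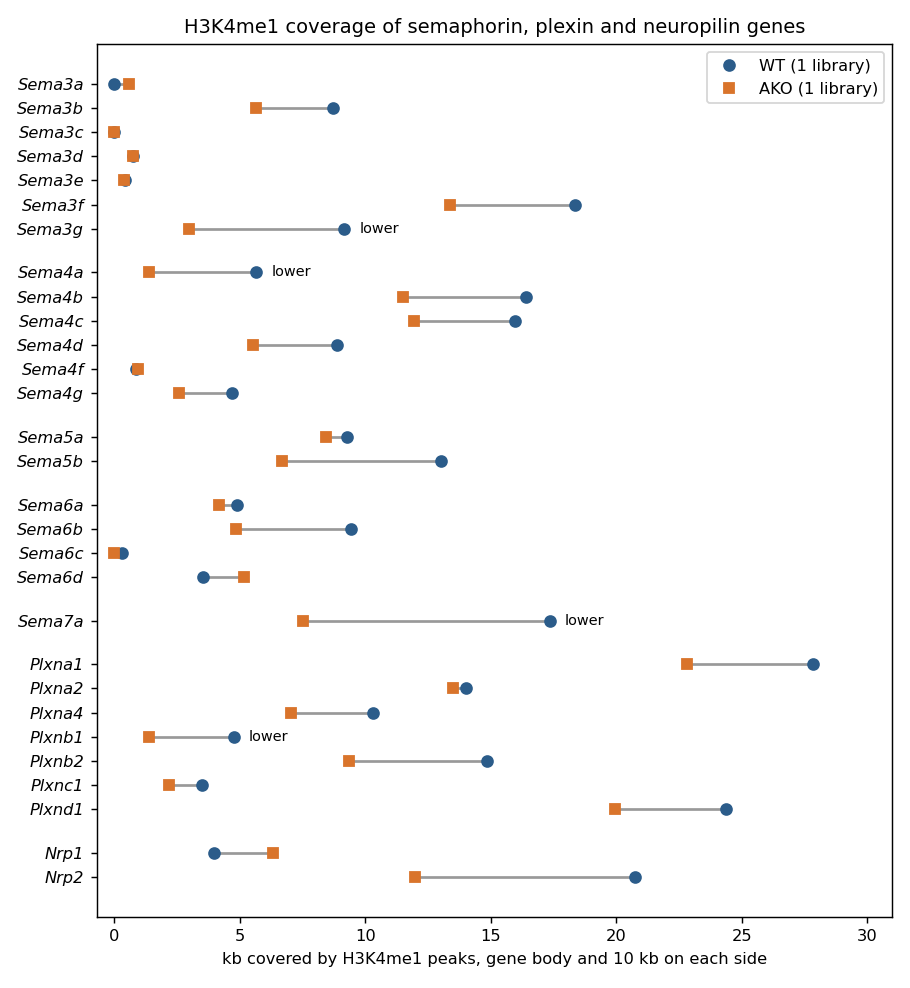
Coverage of each member in kb (x axis), with the WT library as circles and the AKO library as squares, grouped by family. The circles lie to the right of the squares at 23 members, and the word lower marks the 4 genes that met the rule of size.

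**Figure D2:**
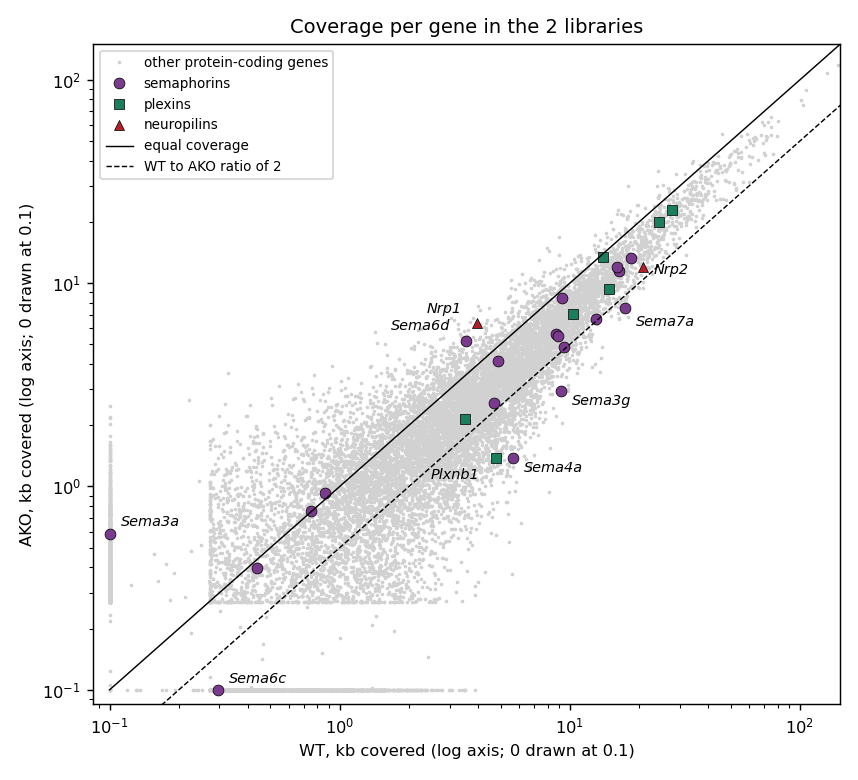
Coverage per gene in WT (x axis) and AKO (y axis), in kb on log axes, with semaphorins, plexins and neuropilins over the other protein-coding genes in grey. The 4 lower members lie below the dashed line of ratio 2, and Nrp1 and Sema6d lie above the solid line of equal coverage.

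The class 3 semaphorins, the secreted ligands, split by chromosome. Sema3a, Sema3c, Sema3d and Sema3e on chromosome 5 were almost bare in both libraries, with 1.19 kb in WT against 1.74 kb in AKO over all 4. Sema3b, Sema3f and Sema3g on chromosomes 9 and 14 covered 36.2 and 22.0 kb. Sema3a (13124822 to 13603485), which repels sensory and sympathetic axons through Nrp1, had no WT peak and 2 AKO peaks of 17 fragments each, 0.586 kb in all. Sema3c (17574816 to 17730268), known from neural crest and outflow tract development, was the only member with no peak in either library. Sema3e (14025276 to 14256689), which binds Plxnd1 without a neuropilin, had 1 peak in each, of 19 fragments in WT and 18 in AKO, just inside the gene's start. Sema3d (12383161 to 12588953) had 0.753 kb and 0.760 kb. Its 1 peak present in both held 13 fragments in WT and 24 in AKO, with exact Poisson 95% intervals of 6.92 to 22.2 and 15.4 to 35.7 that overlap. These intervals, here and below, cover counting error only.

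Sema3g was the class 3 gene with the lowest AKO to WT ratio. Sema3g (chromosome 14, 31217873 to 31230352), a ligand of Nrp2 made by blood vessels, covered 9.15 kb in WT against 2.96 kb in AKO. Of its 9 WT peaks, 4 had an AKO counterpart, and each of the 5 AKO peaks had a WT counterpart. The 5 peaks seen in WT alone had 14 to 20 fragments, and 4 of them stood in a row across the far end of the gene and the sequence just beyond it. The gene body alone held 2.93 and 0.803 kb, so most of the difference lay in the flanks, which also reach into Tnnc1 and Phf7. With 50 kb on each side the ratio was 1.56 and the call ended. Sema3f (chromosome 9, 107681499 to 107710475), the main semaphorin ligand of Nrp2, was the most covered of the class with 18.4 and 13.4 kb. Its largest WT peak was 7.02 kb long and had 59 fragments at the summit, where AKO had 37. Sema3b (107597674 to 107609241), its neighbour on the same chromosome, had 8.72 and 5.64 kb, and 4.97 and 2.36 kb of that lay in flanks shared with Gnai2, Ifrd2 and Lsmem2.

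Class 4 semaphorins are membrane proteins, several of them made by immune cells, and 5 of the 6 (83.3%) had less coverage in AKO, near the 78.3% of all genes with a peak. Sema4a (chromosome 3, 88435959 to 88461182), known from dendritic cells and the retina, had 5.65 kb in WT against 1.39 kb in AKO. Inside the gene body, 3.90 kb in WT stood against 0.206 kb in AKO. All 6 WT peaks inside the gene and away from its outermost start lacked a partner in AKO, although 3 of them had 24 fragments at their summits. The 3 regions at and before that start were marked in both libraries, with 32, 34 and 26 fragments in WT and 22, 23 and 18 in AKO. The call ended from peaks at or above a −log10 q of 5 (2.40 and 0.548 kb), at equal covered length and in the wider window. Equal covered length, here and below, keeps only the strongest peaks of each list up to 22.2 Mb, 12002 in WT and 19731 in AKO. Sema4d (chromosome 13, 51685529 to 51793678), the leukocyte semaphorin CD100 and ligand of Plxnb1, had 8.89 and 5.51 kb, all within the gene body. Its tallest region held 44 fragments in WT (32.0 to 59.1) and 23 in AKO (14.6 to 34.5).

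None of the other class 4 genes met the rule of size. Sema4c (chromosome 1, 36548639 to 36560699), a ligand of Plxnb2, had the highest density of all members, 49.8 kb per 100 kb of window in WT and 37.3 in AKO, and 15.95 and 11.9 kb in all. Its gene body held 8.11 and 7.465 kb, so most of the difference lay in the flanks (7.84 and 4.48 kb), which reach into Ankrd39 and Fam178b. Sema4b (chromosome 7, 80186870 to 80226646) had 16.4 and 11.5 kb, with its tallest peak inside the gene at 55 and 45 fragments. Sema4g (chromosome 19, 44988743 to 45003397), another ligand of Plxnb2, had 4.697 and 2.59 kb, of which 1.11 and 0.530 kb lay in the gene body. Sema4f (chromosome 6, 82911884 to 82939769) had 0.860 and 0.929 kb. Sema4f, the exception in the class, thus had under 1 kb in both libraries, and its direction turned in 3 of 7 settings.

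Classes 5 and 6 held the tallest WT peak of the whole family and a gene with more coverage in AKO. Sema5b (chromosome 16, 35541154 to 35664261), a membrane semaphorin with thrombospondin repeats, covered 13.0 kb in WT against 6.69 kb in AKO. Its start region (35540518 to 35542678) had 85 fragments in WT (67.9 to 105) and 50 in AKO (37.1 to 65.9), and these counting intervals do not overlap. All 5 of its regions marked in both libraries were lower in AKO, with AKO to WT ratios of summit pileup between 0.5996 and 0.680. Sema5a (chromosome 15, 32244813 to 32696341), of the same structure, had 17 and 18 peaks and 9.27 and 8.43 kb. Its direction turned in 3 of 7 settings, at equal covered length with 1.03 and 2.81 kb.

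Sema6d and Sema6a are long class 6 genes with thin coverage. Sema6d (chromosome 2, 124089943 to 124667789), a ligand of Plxna1 in heart development, had 3.55 kb in WT against 5.18 kb in AKO from 7 and 11 peaks. Its start region was the tallest in both, with 45 fragments in WT (32.8 to 60.2) and 29 in AKO (19.4 to 41.65), so height and length differed in opposite directions. The added length came from 7 AKO peaks without a WT partner, of 12 to 22 fragments, and the direction turned in 3 of 7 settings, among them peaks of at least 4-fold enrichment alone (2.82 and 2.47 kb). Sema6a (chromosome 18, 47245254 to 47371200), a ligand of Plxna2 and Plxna4, had 4.89 and 4.16 kb. From peaks at or above a −log10 q of 5 it had 3.98 and 0.642 kb and met the rule of size. Sema6b (chromosome 17, 56123085 to 56140343) had 9.43 and 4.85 kb, of which 5.66 and 2.597 kb lay in the flanks. Its tallest peak (56119224 to 56121581), with 57 and 33 fragments, lay over the neighbouring gene Lrg1. Sema6c (chromosome 3, 95160420 to 95174050) had 1 WT peak of 0.297 kb and no AKO peak.

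Sema7a had the largest difference of all members with the peaks as deposited, and in 5 of 7 alternative settings another member led. Sema7a (chromosome 9, 57939596 to 57962865) encodes the anchored semaphorin that binds Plxnc1 and beta-1 integrin. It covered 17.3 kb in WT against 7.53 kb in AKO, and only 128 of the 20661 genes had a larger loss of kb. With each peak counted whole, past the window edge too, −7.69 kb of a net −10.7 kb lay in 7 regions that both libraries marked, where the AKO peaks were shorter in sum. The widest WT peak, 4.28 kb inside the gene with 25 fragments (57945195 to 57949478), stood opposite a peak of 13 fragments in AKO. A further 7 WT peaks had no partner, and 1 of them (57952607 to 57953320) had the highest −log10 q of the authors among partnerless WT peaks of the members (9.86), with 28 fragments. The gene body alone held 9.63 and 3.398 kb. The region across the outermost start had 32 fragments in WT and 27 in AKO. The tallest region, beyond the far end of the gene, had 39 (27.7 to 53.3) and 33 (22.7 to 46.3), so the counting intervals at that summit overlapped. The direction turned when both lists were limited to their strongest peaks of equal total length, with 3.37 kb in WT and 5.77 kb in AKO, and with peaks within 1 kb joined the ratio of 1.995 ended the call.

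The plexins, the signalling receptors, all had less coverage in AKO, 99.6 kb in WT against 76.2 kb in AKO over the 7, a ratio of 0.765. Over all genes the ratio was 0.725, and 78.3% of those with a peak had less. Plxnd1 (chromosome 6, 115954811 to 115995339), the receptor of Sema3e known from blood vessel patterning, covered 24.4 kb in WT against 19.96 kb in AKO. It had 13 peaks in each, and each AKO peak had a WT counterpart. The AKO to WT ratio of pileup in its 8 shared regions ranged from 0.495 to 1.05, with 58 and 32 fragments in the region next to the start. The ratio of 1.05 came from a region beyond the far end that runs past the window edge, with 29 and 30 fragments. The AKO peak of that region that reached into the window had 19. Plxna1 (chromosome 6, 89316313 to 89362613), a receptor of class 3 semaphorins with neuropilins and of Sema6d, was the most covered member, with 27.8 and 22.8 kb. Its widest WT peak spanned 13.6 kb, the widest AKO peak 9.59 kb, and they had 68 (52.8 to 86.2) and 53 (39.7 to 69.3) fragments.

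Plxna2 (chromosome 1, 194619791 to 194816869), which relays Sema6a, differed least among the plexins, with 13.998 kb in WT against 13.5 kb in AKO. Of its 21 WT peaks 13 had a partner, as had 13 of the 22 AKO peaks. It also held the AKO peak (194745603 to 194746662) that led all partnerless AKO peaks of the members by −log10 q (9.24), with 25 fragments. Regions marked in both held 10.4 kb in WT against 8.93 kb in AKO, and a further 3.60 kb was called in WT alone and 4.55 kb in AKO alone. The direction at Plxna2 turned in 3 of 7 alternative settings, and at equal covered length of the strongest peaks it was 1.32 and 5.64 kb. Plxna4 (chromosome 6, 32144543 to 32588192), of the same subfamily, had 10.3 and 7.05 kb, and at equal covered length 0 and 5.21 kb, where its direction turned.

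Plxnb1 was the one plexin that was lower by the rule of size. Plxnb1 (chromosome 9, 109093849 to 109119915), the receptor of Sema4d that acts on RhoA, had 4.77 kb in WT against 1.39 kb in AKO. In WT nearly all of it was 1 peak of 4.34 kb across an annotated start inside the gene (109094578 to 109098921), with 31 fragments. In AKO the same stretch held 3 short peaks, the tallest with 17 fragments (9.90 to 27.2, against 21.1 to 44.0 in WT). With peaks within 1 kb joined the lengths were 4.77 and 3.09 kb and the call ended, as it did in the wider window and at equal covered length, where no peak was left. Plxnb2 (chromosome 15, 89155546 to 89182018), the receptor of Sema4c and Sema4g, had 14.8 and 9.34 kb, with 9 of 10 WT peaks and all 11 AKO peaks shared, and its direction turned at equal covered length (4.60 and 6.86 kb). Plxnc1 (chromosome 10, 94790866 to 94945015), the receptor of Sema7a, had 3.49 and 2.16 kb. Its region at the start had 45 fragments in WT and 24 in AKO.

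The neuropilins differed in opposite directions. Nrp2 (chromosome 1, 62703317 to 62818692), co-receptor of Sema3f and of the lymphatic growth factor VEGF-C, covered 20.7 kb in WT against 12.0 kb in AKO. Nrp1 (chromosome 8, 128358591 to 128505476), co-receptor of Sema3a and VEGF-A, covered 3.97 kb in WT against 6.34 kb in AKO, the largest gain among the members, and 104 of the 20661 genes gained more. At Nrp2, 17 of 29 WT peaks and 18 of 21 AKO peaks had a partner. At Nrp1, 2 of 8 WT peaks and 2 of 10 AKO peaks had one, where over all peaks the shares were 60.6% and 76.2%. The tallest Nrp1 region, inside the gene, had 31 fragments in WT (21.1 to 44.0) and 34 in AKO (23.6 to 47.5), and its other peaks had 11 to 19. The tallest Nrp2 region had 43 and 29. None of the Nrp1 peaks seen in a single library exceeded 18 fragments, where the weakest called summit had 10, so a missing call there does not show an unmarked site. From peaks at or above a −log10 q of 5, Nrp1 covered 1.72 and 1.55 kb, so the direction turned. Nrp2 had 4.59 and 4.93 kb when the lists were limited to an equal covered length, where its direction turned too. At a −log10 q of at least 5 Nrp2 had 11.2 and 4.93 kb and met the rule of size.

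**Figure D3:**
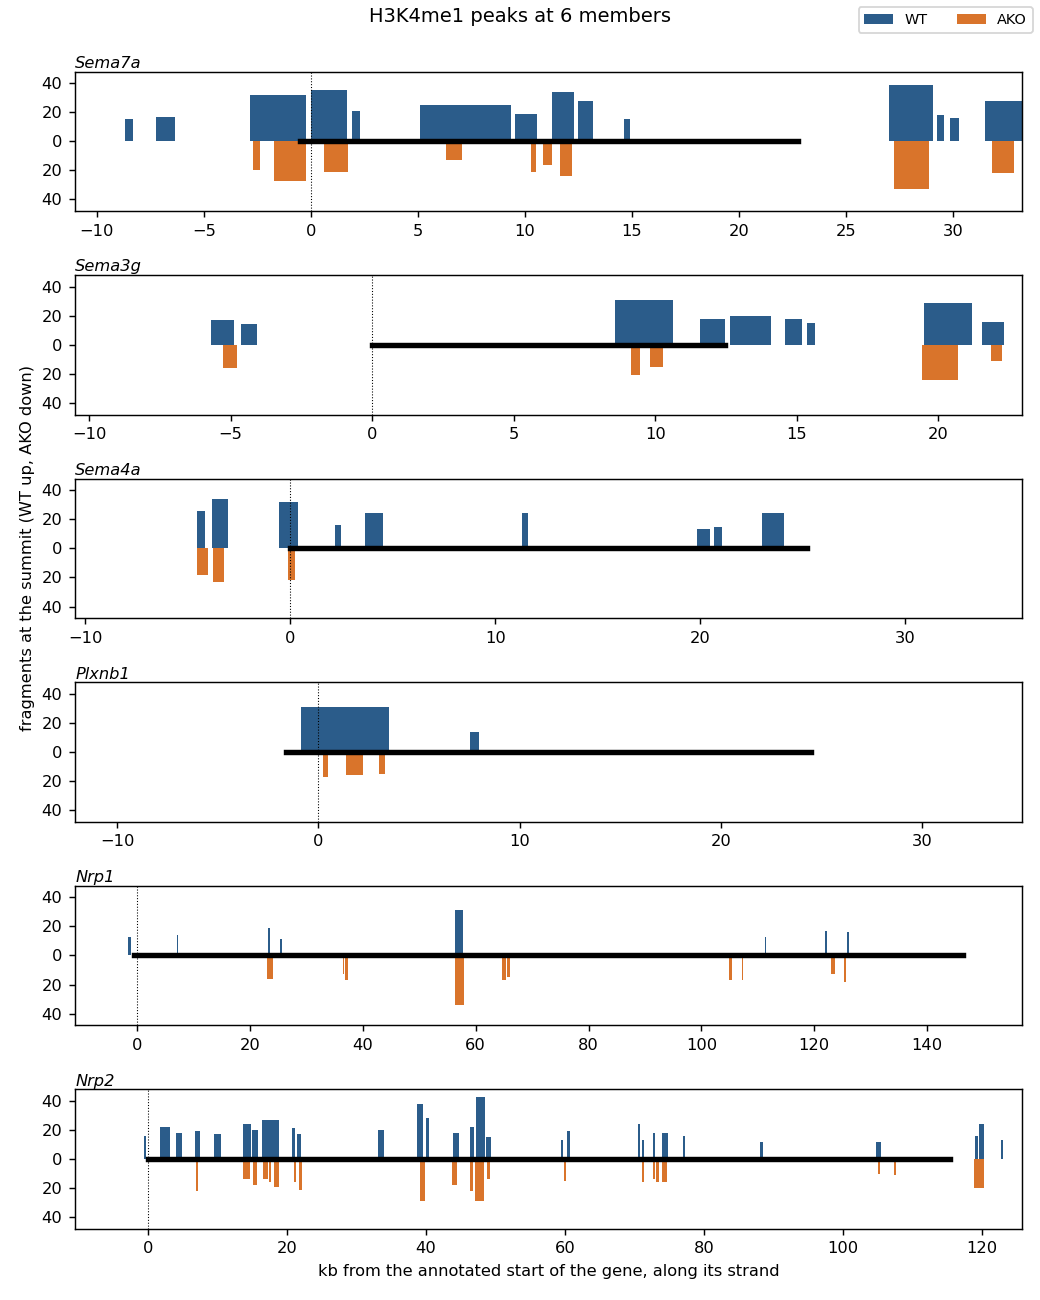
Peaks at Sema7a, Sema3g, Sema4a, Plxnb1, Nrp1 and Nrp2 by distance in kb along the strand from a RefSeq start (x axis; dotted line, the first start in the promoter table), with fragments at the summit upward for WT and downward for AKO. Bar width is peak width and the black line is the gene body. At Plxnb1 a single wide WT bar faces 3 narrow AKO bars, and at Nrp1 only 2 regions face each other.

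Ligands and their receptors can be set side by side. Sema7a (ratio 0.434) and Plxnc1 (0.618) both had less in AKO, as had Sema4d (0.620) and Plxnb1 (0.291). Sema3f (0.727) and Sema3g (0.324) and their co-receptor Nrp2 (0.578) did as well. Sema3e had under 0.5 kb in either library while its receptor Plxnd1 (0.819) was among the densest members, with 40.3 kb per 100 kb in WT against 33.0 in AKO. Sema4c (0.749) and Sema4g (0.551) and their receptor Plxnb2 (0.629) also had less as deposited. So had Sema6a (0.851) and its receptors Plxna2 (0.963) and Plxna4 (0.683). Sema3a and Nrp1 both had more in AKO. From peaks at or above a −log10 q of 5, Sema3a had no coverage in either library and Nrp1 had less in AKO. Sema6d (1.46) had more while its receptor Plxna1 (0.819) had less, but Sema6d had less in 3 of 7 alternative settings. Of all genes with a peak, 78.3% had less. With 1 library per genotype these pairings are descriptions only.

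Coverage differed both through sites seen in 1 library and through narrower sites in both. The members' windows held 296 merged regions, 142 marked in both libraries, 104 in WT alone and 50 in AKO alone. That is 47.97%, 35.1% and 16.9%, and in the windows of all genes the shares were 50.5%, 32.7% and 16.9%. A partner in the other library, overlapping by at least 1 bp, was found for 58.6% of the 251 WT peaks in the members' windows (exact binomial 95% interval 52.2 to 64.7). For the 226 AKO peaks the share was 77.9% (71.9 to 83.1). Over all peaks on these chromosomes the shares were 60.6% and 76.2%, inside those intervals. The intervals treat peaks as independent, although many share a window and all of a genotype come from 1 library. They cover counting error only and do not test members against all genes. Of the net difference in peak length at members, 62.3% lay in regions marked in both libraries, against 55.4% in the windows of all genes. In 26 of the 142 shared regions (18.3%) AKO had several peaks, and in 6 (4.23%) WT had, while over all gene windows these shares were 14.1% and 6.07%.

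Within shared regions the summit was lower in AKO at 107 and higher at 35, that is lower at 75.4%, against 72.4% over all gene windows. Summit pileup in AKO was a median 0.849 of that in WT at members, against 0.855 over all gene windows. Class 3 semaphorins had 17 of 19 shared regions lower in AKO with a median ratio of 0.773, and neuropilins 12 of 18 with 0.882. The plexins, with 33 of 48 and 0.883, had a median close to that of the neuropilins, and the order of the families was not tested.

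**Figure D4:**
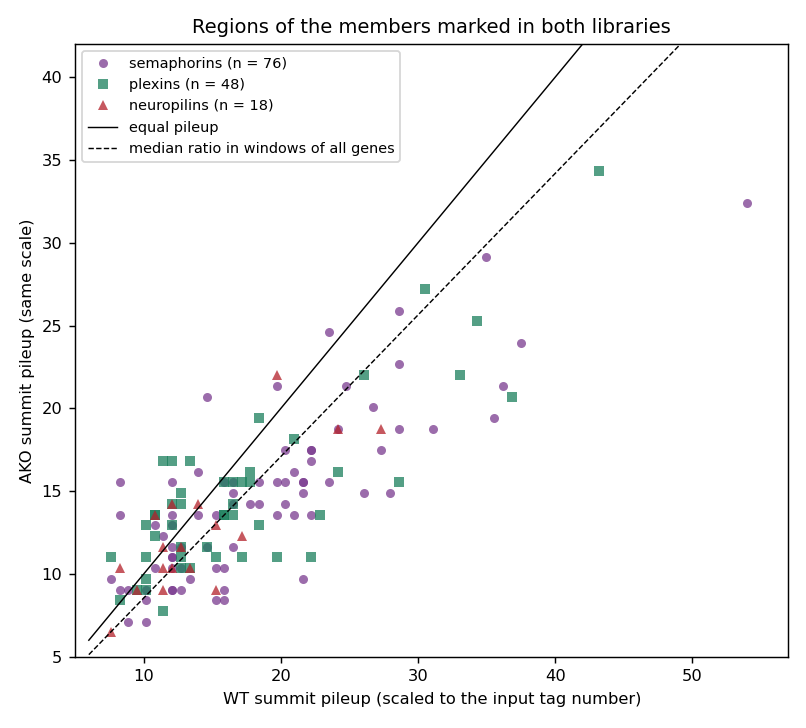
Summit pileup of the 142 regions marked in both libraries, WT on the x axis and AKO on the y axis, on the authors' scale of the input tag number. Of these points 107 lie below the solid line of equal pileup, and the highest WT point is the start region of Sema5b.

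At gene starts, all marking seen in a single library was in WT. RefSeq promoter windows of GRCm38.p6 (the assembly named mm10), from 250 bases before to 50 after a start, were matched by symbol for 24 members with 35 windows. Plxna1, Plxna4, Sema3b, Sema3f and Sema6a were not matched. A WT peak overlapped 17 windows and an AKO peak 8. Of the windows, 9 were overlapped in WT alone (7.98% of all windows were), 8 in both (8.69%) and 0 in AKO alone (0.528%). Counted by gene, 15 of the 24 had a WT-marked window (17.4% over all genes) and 7 an AKO-marked one (9.83%). Among genes with a WT-marked window, 53.3% of the members and 46.5% of all genes had none in AKO. These were 8 member genes marked in WT alone (8.09% over all genes), and 0 were marked in AKO alone (0.523%).

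The windows covered from end to end in WT and without an AKO overlap belonged to Plxnb1, Plxnc1, Plxnb2 and Sema4d. AKO peaks were near all the same, 61 bases from the start at Sema4d, 226 at Plxnb1, 252 at Plxnc1 and 980 at Plxnb2. Each of these starts lay in a region marked in both libraries, so WT alone describes the 300-base window and not the region. Windows with an AKO overlap were covered to a lesser or equal extent there, 300 and 300 bases at Sema5b, 268 and 202 at Sema6d, 300 and 179 at Sema4g. Both CpG-rich and CpG-poor starts were among those marked in WT alone. The CpG count of the 9 windows ranged from 3 at Sema4d to 37 at Nrp2, with a median of 25. The median was 18.5 in the 8 member windows marked in both libraries and 9.5 in the 18 without a peak. Over all windows the medians were 15 for WT alone, 16 for both and 13 without a peak. Printed are 3 windows marked in WT alone and 2 marked in both, 5′ to 3′ on the gene's strand, with CpG dinucleotides in capitals, to show how widely starts of like marking differ in CpG content. They lie at chr9:109095186-109095485 (plus strand) for Plxnb1, chr10:94944796-94945095 (minus) for Plxnc1, chr13:51748761-51749060 (minus) for Sema4d, chr16:35541112-35541411 (plus) for Sema5b and chr2:124089719-124090018 (plus) for Sema6d.
Plxnb1, WT alone, 36 CpG: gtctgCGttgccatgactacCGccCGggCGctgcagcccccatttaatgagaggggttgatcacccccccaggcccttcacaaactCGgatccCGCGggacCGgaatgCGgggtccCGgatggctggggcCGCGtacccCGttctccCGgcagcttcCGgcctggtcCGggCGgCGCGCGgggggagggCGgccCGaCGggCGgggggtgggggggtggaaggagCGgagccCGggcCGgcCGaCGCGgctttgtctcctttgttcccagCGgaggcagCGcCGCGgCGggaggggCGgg
Plxnc1, WT alone, 30 CpG: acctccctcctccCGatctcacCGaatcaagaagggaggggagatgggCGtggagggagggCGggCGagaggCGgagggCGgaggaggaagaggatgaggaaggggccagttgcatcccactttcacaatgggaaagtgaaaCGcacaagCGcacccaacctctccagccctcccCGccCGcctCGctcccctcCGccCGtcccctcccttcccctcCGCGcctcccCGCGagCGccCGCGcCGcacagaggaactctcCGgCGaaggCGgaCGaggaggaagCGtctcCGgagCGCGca
Sema4d, WT alone, 3 CpG: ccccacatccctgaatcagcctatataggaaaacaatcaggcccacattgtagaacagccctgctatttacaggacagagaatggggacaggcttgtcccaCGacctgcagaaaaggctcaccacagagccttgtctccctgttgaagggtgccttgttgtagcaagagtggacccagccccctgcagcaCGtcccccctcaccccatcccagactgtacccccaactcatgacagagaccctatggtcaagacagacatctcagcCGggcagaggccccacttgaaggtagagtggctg
Sema5b, both libraries, 27 CpG: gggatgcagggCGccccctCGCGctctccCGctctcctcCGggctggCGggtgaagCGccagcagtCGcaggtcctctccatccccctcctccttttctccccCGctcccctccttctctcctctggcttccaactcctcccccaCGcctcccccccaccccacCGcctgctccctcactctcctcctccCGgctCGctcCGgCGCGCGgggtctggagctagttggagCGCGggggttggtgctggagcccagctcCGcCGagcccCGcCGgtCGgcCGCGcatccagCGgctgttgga
Sema6d, both libraries, 14 CpG: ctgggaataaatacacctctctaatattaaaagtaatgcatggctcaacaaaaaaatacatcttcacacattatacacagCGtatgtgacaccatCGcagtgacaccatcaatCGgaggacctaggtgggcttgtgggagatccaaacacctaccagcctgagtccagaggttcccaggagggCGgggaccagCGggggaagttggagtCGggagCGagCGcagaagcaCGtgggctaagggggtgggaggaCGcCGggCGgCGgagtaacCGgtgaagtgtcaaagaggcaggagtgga

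**Figure D5:**
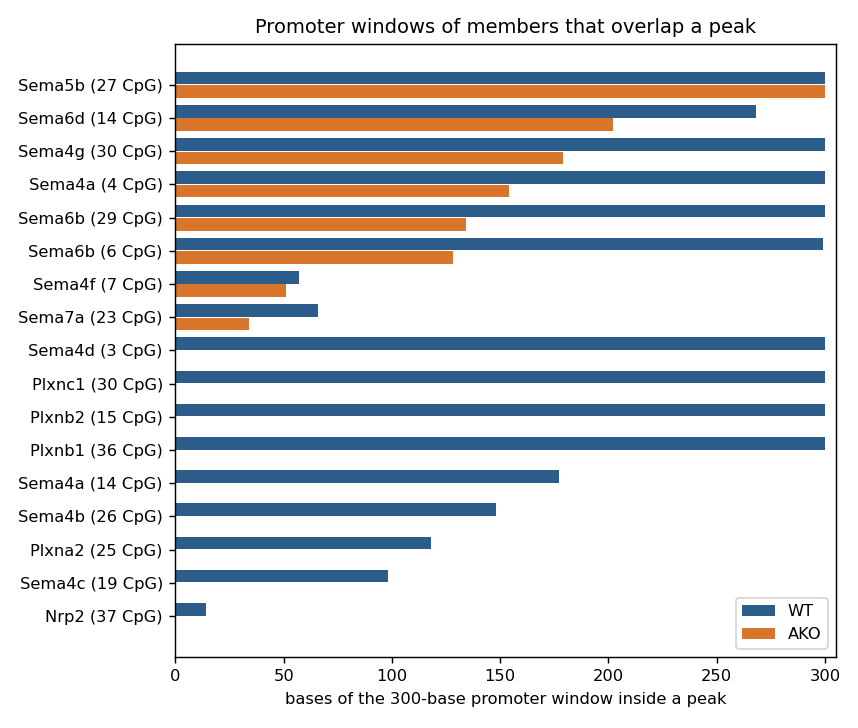
Bases of each 300-base promoter window inside a peak (x axis) for the 17 windows that overlap any, WT and AKO as separate bars, with the number of CpG dinucleotides beside each gene. The lower 9 windows have no AKO bar, and in the other 8 the AKO bar is equal to or shorter than the WT bar.

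Short sequence motifs were searched on both strands of the windows. The GC box GGGCGG was in 26 of the 35 member windows (74.3%) and in 47.0% of all windows. Member windows were also richer in G and C, with a median of 62.7% against 57% of all windows, and the part of this was not tested. The palindrome recognised by early B cell factors was in 2 member windows, at Plxnb1 and at Sema4b, and in 0.981% of all windows. The letters TTGCNNAA, a core of C/EBP sites, were in 2 member windows (5.71%, against 10.3%). The letters TGACGTCA, the cyclic AMP response element, and the spaced direct repeat bound by PPAR and RXR were in 0 (2.30% and 0.0448% of all windows). A match is a description of the letters and not of binding.

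Genes that act beside or below the plexins were compared from a list of 55 receptor partners, small GTPase regulators and cytoskeletal effectors. Coverage was less in AKO for 43 and more for 12, with a summed ratio of 0.775. That is 78.2% with less, where all genes with a peak had 78.3% and a ratio of 0.725. The rule of size called 5 lower (5.56% over all genes) and 2 higher (0.237%). Of the 43 with at least 2 kb in WT, the 5 were 11.6%, below the 14.0% of all such genes. Lower were Erbb2, a receptor tyrosine kinase that pairs with B plexins (4.79 and 2.02 kb), Itga1 (2.75 and 0.330 kb), the VEGF receptor Kdr, which pairs with neuropilins (2.61 and 0.366 kb), Rnd2 (6.63 and 2.95 kb), and Fes, a tyrosine kinase (6.33 and 2.27 kb). Higher were Met, the hepatocyte growth factor receptor and another partner of Plxnb1 (2.11 and 4.74 kb), and Arhgef12, the RhoA exchange factor that B plexins bind (2.93 and 6.54 kb). Among these partners of Plxnb1, Erbb2 was thus lower, as Plxnb1 was, while Met and Arhgef12 were higher. Alternative settings were compared for the members only, and there the Plxnb1 call held in 4 of 7. The largest differences were at Mical3, an oxidase of actin filaments (51.8 and 31.1 kb), and Trio (63.3 and 50.2 kb) on the lower side, and at Cdc42 (3.996 and 7.73 kb) and Arhgef12 on the upper side.

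The other guidance families, slits, netrins and ephrins with their receptors, gave a like picture. Of 38 genes, 33 were less covered in AKO, 1 was more covered and 4 lacked any peak, with a summed ratio of 0.644. Of the 34 with a peak 97.1% had less, and of all such genes 78.3%. The rule of size called Ephb4, Unc5a, Efnb3 and Unc5c lower and none higher, 4 of the 24 with at least 2 kb in WT (16.7%), near the 14.0% of all such genes. Ephb2 (55.8 and 35.4 kb) and Slit3 (72.1 and 52.6 kb) had the largest differences, and Efnb2 (1.68 and 1.94 kb) was the one with more in AKO. The member genes at or above 100 kb had a ratio of 0.779 and all such genes 0.7997, while below that length the ratios were 0.650 and 0.697. Lower ratios in shorter genes were thus seen among the members and among all genes.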

How the data were processed

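The libraries were not replicated, and the members and gene lists were chosen with earlier results of these data known. Per the submitters' processing notes, Bowtie2 2.2.5 and mm10 were used. MACS 2.1.1.20160309 is named in the file headers and MACS2 2.2.1 in the notes. Per the file headers, each library was called alone against the same input in narrow mode at q 0.05, with at most 1 tag per position. Narrow calling can break wide domains into several peaks. The deposited pileup is a summit signal on which the authors' MACS run had put both ChIP libraries at input depth, and undoing that scale gave whole fragments within 0.01. The deposited −log10 q and −log10 p values and the deposited fold enrichment (a ratio over local background) are MACS's own values for each peak. Coverage was the merged peak length in the gene body and 10 kb on each side, in Python 3.11.15 with numpy 2.4.6, pandas 2.3.3 and scipy 1.17.1, and the code was tested on simulated data. Windows of neighbouring genes can share peaks. Intervals are exact 95% Poisson or Clopper-Pearson intervals. Every member is accounted for, and in the other lists the genes named met the rule of size or had the 2 largest differences in a direction. Alternatives changed the peak threshold, list length, joining, window, overlap and rule of size.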

Additional observations from a re-analysis of the deposited data

How the results depend on the processing

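With 1 library per genotype no setting has a replicate check, and the AKO list is shorter. No paired analysis was possible because each genotype has 1 library and the labels give no replicate numbers. Against 4 members lower and 0 higher, peaks with −log10 q of at least 5 gave 7 lower. These were Sema3g, Sema7a and Plxnb1 again, with Nrp2, Sema5b, Sema6a and Sema6b, while Sema4a was not called. Windows with 50 kb on each side gave 1 lower (Sema7a). A ratio above 1.5 gave 11 lower and 1 higher (Nrp1, with 0.421% of all genes higher). Lists of equal peak number gave 4 lower and 1 higher (Nrp1 again, with 0.474% of all genes higher). The median difference was −1.10 kb in gene bodies alone. At equal covered length each list kept its strongest peaks up to 22.2 Mb, which left 12002 of 72040 WT and 19731 of 62361 AKO peaks. This setting dropped most peaks of both lists and made their total length equal by construction. There 2 members were lower (Sema3g and Sema6b), 2 higher (Plxna2 and Plxna4) and 15 had less in AKO. The summed ratio was 0.885 and the median −0.085 kb, and Sema7a reversed to 2.39 kb more in AKO. The cause was not tested. Among member peaks with their own −log10 q of at least 5, 81.6% of WT and 95.5% of AKO peaks had a partner. The number of genes that can be called lower changes with the window. Over all genes 1148 were lower as deposited, 1573 with 50 kb on each side and 521 in gene bodies alone. Of genes with at least 2 kb in WT these were 14.0%, 12.6% and 10.4%. The members lower in these settings were 4 of 23, 1 of 25 and 5 of 22 such members. Of genes with at least 2 kb in WT, 36.97% were lower at −log10 q of 5, and 7 of 20 such members. At a ratio above 1.5 it was 29.1%, and 11 of 23 such members. At equal covered length the ratio over all genes was 0.935, with 532 lower (2.575%) and 463 higher (2.241%). Of genes with at least 2 kb in WT there, 13.2% were lower, and 2 of 15 such members. Of 203 values for single members, 18 had the opposite sign to the value as deposited, over 10 members, and 7 of them arose at equal covered length. Sema7a was the one among them called by the rule of size, and 14 members had less in AKO in every one of 7 settings.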

Other observations

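The rule left out the X chromosome, where 2 further plexins lie. Plxna3, another receptor that pairs with neuropilins, covered 0.599 kb in WT and 0.361 kb in AKO. Plxnb3, a receptor of Sema5a, had no peak in either library.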
